A study of Mus musculus with 16 samples.

Results

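Of 15014 genes measured at 1 TPM (a length-scaled share of all transcripts, with all genes of a library summing to 1000000) or more in at least 4 of 16 mouse kidney libraries, 431 (2.87%) had all 12 values from cisplatin-injected mice on one side of the 4 values from vehicle-injected mice. In 297 genes (1.98%) the 12 cisplatin values lay above every vehicle value, and in 134 genes (0.893%) they lay below. The table lists 46078 genes, and 13880 of them had no reads in any library. All mice were C57BL/6, aged 20 weeks, and the kidney was taken after perfusion 72 h after an intraperitoneal injection. BL_vehicle mice received 0.9% sodium chloride with no preconditioning. BL_cisplatin mice received cisplatin with no preconditioning, CR_cisplatin mice received cisplatin after 4 weeks of calorie restriction, and HP_cisplatin mice received cisplatin after hypoxia of 2, 4 and 8 h on 3 days, ending at least 1 h before the injection. Each group had 4 libraries of total RNA depleted of cytoplasmic ribosomal RNA. No group combined preconditioning with vehicle, so every CR_cisplatin or HP_cisplatin difference from vehicle holds the drug and the preconditioning together. The labels give neither the sex of the mice nor the time of day of the harvest, and they do not say whether the libraries of a group came from separate mice, so each p-value speaks only for the spread among the libraries, which may be technical.

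Cisplatin is a platinum drug that crosslinks DNA, is taken up by kidney tubule cells and blocks transcription at its adducts. DNA damage stabilises the transcription factor p53, which turns on genes of cell cycle arrest, p53 feedback and death. The circadian clock is a loop in which the activators Arntl (BMAL1), Clock and Npas2 drive Per, Cry, Nr1d and Dbp genes through E-boxes, while Nr1d and Ror proteins act on Arntl through ROR elements. Class II major histocompatibility complex (MHC) molecules present peptides from outside the cell to CD4 T cells. They are made mainly by dendritic cells, B cells and macrophages under the coactivator Ciita.

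The 3 cisplatin groups differed widely in the marker of tubule injury. The genes described here differed from vehicle in libraries with and without that marker. Havcr1, which encodes the tubule injury marker KIM-1, measured 0.339, 0.306, 1.33 and 1.06 TPM in BL_vehicle libraries 1 to 4. It measured 400, 344, 298 and 489 TPM in BL_cisplatin, 1.94, 0.317, 0.989 and 0.518 TPM in CR_cisplatin, and 582, 51.0, 409 and 0.473 TPM in HP_cisplatin. CR_cisplatin overlapped vehicle, and within HP_cisplatin library 4 stood with vehicle while libraries 1 to 3 stood with BL_cisplatin. Slc34a1, which carries phosphate into proximal tubule cells, was at 1580 to 2173 TPM in vehicle, 1406 to 1915 TPM in CR_cisplatin and 18.2 to 30.2 TPM in BL_cisplatin.

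Totals of 49180903 to 62604521 reads per library were recovered from the TPM values, and mitochondrial ribosomal RNA took 27.4% to 33.1% of them. Slc34a1 and Umod marked every library as kidney, and the T cell marker Cd3e and the neutrophil marker Ly6g reached at most 0.217 and 0.199 TPM. HP_cisplatin 4 stood apart from its group and was the library closest to CR_cisplatin 4. The squared difference between their read counts was 1.80 times that of read sampling noise, against 3.33 times for the next closest pair. Without HP_cisplatin 4, 494 genes (3.29%) lay apart from vehicle, a set that holds the 431 by construction. All 4 BL_cisplatin libraries and CR_cisplatin 1 carry one title prefix, of unstated meaning, and the other 11 libraries, vehicle included, carry another. Among the 7 cisplatin and 4 vehicle libraries with the second prefix, 620 genes (4.13%) lay apart, which again hold the 431 by construction.

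How far the vehicle range was left differed by group. A limma contrast of the mean of the cisplatin groups against vehicle called 6650 genes (44.3%) at an adjusted p of 0.05, but only 23 without BL_cisplatin and 15 among the second-prefix libraries. That all 431 were among the 6650 follows largely from the rule and supports nothing. Against vehicle separately, 10032 genes (66.8%) were called in BL_cisplatin, 4398 (29.3%) in HP_cisplatin and 8 (0.0533%) in CR_cisplatin. The HP_cisplatin count rested on single libraries, at 692 without HP_cisplatin 3, 1911 without HP_cisplatin 1, 7709 without HP_cisplatin 4 and 2134 to 2561 without any 1 vehicle library. The CR_cisplatin count was 4, 5 and 4 without CR_cisplatin 2, 3 and 4, 4 without BL_vehicle 4, 17 without HP_cisplatin 4, 65 without the HP_cisplatin group and 184 with array weights. By the range rule alone, 9537 genes (63.5%) lay apart from vehicle in the 4 BL_cisplatin libraries, 2278 (15.2%) in HP_cisplatin and 1375 (9.16%) in CR_cisplatin. With CR_cisplatin left out, 1952 genes lay apart from vehicle, and 651 or 669 with BL_vehicle 1 or 4 left out. The pooled calls split 60.03% higher, and a fit on recovered reads with voom split them 45.9% higher, with 3183 genes higher and 3757 lower. Scaling by the median of ratios left 468 genes apart from vehicle in all 12, of which 54.7% lay above it in place of 68.9%, and kept 211 of the 297 higher genes and 121 of the 134 lower genes apart from vehicle. Leaving the most abundant genes out of the TPM total raised the median log2 difference of all genes in BL_cisplatin from 0.08 to 0.24 and kept 273 and 124.

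Sizes differed in the same way. On the log2(TPM + 1) scale, which understates changes of genes with few reads and is used for every log2 difference here, the median difference of the 297 higher genes from vehicle was 0.75 in BL_cisplatin, 0.19 in CR_cisplatin and 0.52 in HP_cisplatin. For the 134 lower genes it was -1.04, -0.26 and -0.62, beside 0.08, 0.01 and 0.06 over all genes tested. In CR_cisplatin 271 of the 297 and 112 of the 134 differed from vehicle by less than 0.5. Only Cdkn1a and the small nuclear RNA Gm24445 were at least 1 log2 unit higher in each group, and only Dbp at least 1 lower.

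Clock genes apart from vehicle in all 12 libraries differed in opposite directions by their place in the loop, several of them by like amounts in the 3 groups. Over all genes tested, 1.98% lay above vehicle in all 12 libraries and 0.893% below. Of 18 clock genes tested, 3 lay above (Arntl, Npas2 and Clock) and 6 below (Dbp, Per3, Nr1d2, Ciart, Tef and Per2). Among these, activators of the loop were higher, and Per2, Per3, Nr1d2, Ciart and the output factors Dbp and Tef were lower. The rest of the 18 overlapped vehicle, Nr1d1 among them, so the order is not shown for the whole loop. 5 of the 8 genes that passed limma's adjusted test in CR_cisplatin against vehicle were clock genes. Those 8 are the 0.0533% of genes called there. All 8 also satisfy the range rule, which used the same CR_cisplatin and vehicle values. Their calls, and the fits below that leave libraries out, are therefore no separate support for the genes of the rule. An unadjusted limma p under 0.05 was found for 610 of the 15014 genes, fewer than the 1 in 20 that chance alone gives.

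Stretches of promoter are shown for 3 of these genes because they hold the letters through which clock proteins bind DNA. They come from RefSeq windows of build GRCm38.p6, 250 bases before to 50 after a transcription start, here limited for Ciart and Per3 to bases before the start that no annotated exon covers, and run 5′ to 3′ on the gene's strand with the motif in capitals. Ciart (chr3:95882252-95882478, minus strand) held 3 copies of the E-box CACGTG, and Per3 (chr4:151044666-151044915, minus strand) 2 copies of the D-box TTATGTAA. Arntl (chr7:113207493-113207519, plus strand) held the ROR element, which lies 10 bases before 1 RefSeq start of the gene and 36 bases after another. A window of Arntl held 2 matches to the ROR element, and only the first is shown.
Ciart: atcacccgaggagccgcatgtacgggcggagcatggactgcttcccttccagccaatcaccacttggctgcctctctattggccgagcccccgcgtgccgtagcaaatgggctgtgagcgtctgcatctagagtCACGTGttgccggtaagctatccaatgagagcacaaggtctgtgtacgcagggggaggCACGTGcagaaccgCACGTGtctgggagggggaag
Per3: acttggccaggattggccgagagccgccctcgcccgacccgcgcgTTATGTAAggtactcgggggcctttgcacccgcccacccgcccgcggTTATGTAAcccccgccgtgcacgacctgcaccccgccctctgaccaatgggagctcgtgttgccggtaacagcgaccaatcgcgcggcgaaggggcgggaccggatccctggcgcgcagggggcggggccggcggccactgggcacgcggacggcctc
Arntl: ttggtcggAAAGTAGGTTAgtggtgcg
Searched on both strands of 32851 windows, the E-box was in 7.15% of windows and 8.09% of genes, the D-box in 0.938% and 1.11%, and the ROR element in 0.0609% and 0.0703%. Of the 8 clock members with a window, Tef also held an E-box, and no other held any of these 3 motifs. Among members with a window, the E-box was in 26 of 199 higher and 12 of 87 lower genes. The shares of genes cover all 27025 genes with a window, tested here or not, so they are not a matched background for members. The D-box was in 0 of the 199 and in 4 of the 87, namely Baz1b, Ces1e, Coq10b and Per3. A match describes the letters of a window and is not a binding site.

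Arntl (chr7:113207465-113314126, build GRCm38), the activator of the loop, measured 2.72, 2.38, 1.43 and 1.72 TPM in BL_vehicle libraries 1 to 4. It measured 3.94, 4.05, 4.07 and 6.13 TPM in BL_cisplatin, 5.67, 6.69, 6.56 and 9.99 TPM in CR_cisplatin, and 4.82, 8.05, 7.15 and 10.2 TPM in HP_cisplatin. No cisplatin library overlapped vehicle, and the CR_cisplatin libraries were in the range of those of HP_cisplatin although their injury marker was at the vehicle level. The log2 differences from vehicle were 0.86 in BL_cisplatin, 1.42 in CR_cisplatin and 1.46 in HP_cisplatin, each with a standard error (SE) of 0.21. Arntl was the only one of the 297 higher genes that passed the test as higher in CR_cisplatin than in BL_cisplatin, by 0.56 on the log2 scale (limma adjusted p = 0.0268). That call was lost with the title prefix as a term, with the most abundant genes left out of the TPM total, and without BL_cisplatin 1, 2 or 3 or CR_cisplatin 4. Arntl differed by 0.60 between HP_cisplatin and BL_cisplatin (limma adjusted p = 0.0420), but no gene was called between these groups with the prefix as a term, and no higher gene passed as higher in HP_cisplatin without BL_cisplatin 1, 2 or 3, CR_cisplatin 2 or 3, BL_vehicle 2, or HP_cisplatin 2 or 3. Every BL_cisplatin library and no HP_cisplatin library carries the first prefix.

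Npas2, a paralog of Clock that pairs with Arntl, was at 0.547, 0.422, 0.235 and 0.392 TPM in vehicle and at 1.09 (lowest), 1.66 (median) and 2.37 TPM (highest) in the 12 cisplatin libraries. No vehicle library reached 1 TPM, so Npas2 passed the filter on low values through cisplatin libraries alone. The log2 differences were 0.92, 0.83 and 1.06 in BL_cisplatin, CR_cisplatin and HP_cisplatin, and limma's adjusted p in CR_cisplatin was 0.0544. Clock itself was apart by a small step, at 7.30 to 8.07 TPM in vehicle and 8.23 to 11.1 TPM in the 12.

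Dbp (chr7:45705088-45710203), a transcription factor that acts on D-boxes and is a standard readout of clock output, was the lower gene with the widest separation. It measured 16.7, 16.4, 23.3 and 22.3 TPM in vehicle and 2.77, 4.03 and 5.87 TPM (lowest, median and highest) in the 12 cisplatin libraries. Even the highest cisplatin library was 1.34 log2 units below the lowest vehicle library. The differences were -2.08 ± 0.18 (SE) in BL_cisplatin, -1.90 ± 0.18 in CR_cisplatin and -2.12 ± 0.18 in HP_cisplatin, with a limma adjusted p in CR_cisplatin of 0.000339. CR_cisplatin differed from BL_cisplatin by 0.18 (limma adjusted p = 0.377), which does not show the levels to be equal.

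Per3 (chr4:151003652-151044665), a period gene, was at 8.86, 8.96, 9.83 and 8.92 TPM in vehicle and at 3.29, 3.58 and 4.80 TPM (lowest, median and highest) in the 12. Its log2 differences were -1.18, -0.94 and -1.07 in BL_cisplatin, CR_cisplatin and HP_cisplatin, each ± 0.09 (SE), and CR_cisplatin was higher than BL_cisplatin by 0.23 (limma adjusted p = 0.0349). Nr1d2, the nuclear receptor REV-ERB beta, was at 25.7, 27.0, 31.4 and 28.5 TPM in vehicle against 10.5, 12.9 and 17.1 TPM in the 12, with differences of -1.08, -0.92 and -1.12. Neither gene had a cisplatin library near the vehicle range, with gaps of 0.76 and 0.56 log2 units.

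Ciart (chr3:95878503-95882251), a repressor of the loop, was at 1.80, 2.26, 4.07 and 2.85 TPM in vehicle and at 0.427, 0.816 and 1.23 TPM (lowest, median and highest) in the 12. The differences were -0.85, -1.09 and -1.10 in BL_cisplatin, CR_cisplatin and HP_cisplatin. Tef and Per2 were graded instead: Tef measured 45.3 to 61.2 TPM in vehicle, 28.1 to 41.1 TPM in CR_cisplatin and 13.4 to 15.7 TPM in BL_cisplatin. Per2 measured 26.2 to 29.3 TPM in vehicle, 17.2 to 20.4 TPM in CR_cisplatin and 5.97 to 8.63 TPM in BL_cisplatin. Clock genes thus held a set of like size in the 3 groups and a set that was furthest from vehicle in BL_cisplatin. Arntl was in neither set, as its difference from vehicle was smallest in BL_cisplatin.

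The other 9 clock genes overlapped vehicle. Nr1d1, REV-ERB alpha, was at 4.82, 4.64, 5.83 and 4.89 TPM in vehicle, 10.6, 12.4, 10.96 and 11.2 TPM in BL_cisplatin, 1.04, 1.18, 0.820 and 1.29 TPM in CR_cisplatin, and 10.3, 6.05, 7.48 and 0.843 TPM in HP_cisplatin. It lay above vehicle in BL_cisplatin and below it in CR_cisplatin, and CR_cisplatin differed from BL_cisplatin by -2.56 (limma adjusted p = 9.17e-05). Nfil3, a repressor at D-boxes, overlapped through 1 library: BL_vehicle 1 measured 8.89 TPM, against 2.85 to 3.63 TPM in the other vehicle libraries and 6.23 to 12.2 TPM in the 12. Leaving out each library in turn, Dbp, Per3 and Nr1d2 passed the CR_cisplatin test in all 16 fits, with adjusted p up to 0.00300, 0.00300 and 0.0431. Arntl lost the call in 5 of the 16 (without CR_cisplatin 2, 3 or 4, or vehicle 3 or 4, adjusted p up to 0.0889) and Ciart in 3 (without CR_cisplatin 2 or 4, or vehicle 4, up to 0.0938). Of the 5 clock genes, Dbp and Per3 also passed without the BL_cisplatin group and within the second prefix. There Nr1d2 had adjusted p of 0.0825 and 0.102, Arntl 0.0913 and 0.190, and Ciart 0.0923 and 0.293.

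**Figure D1:**
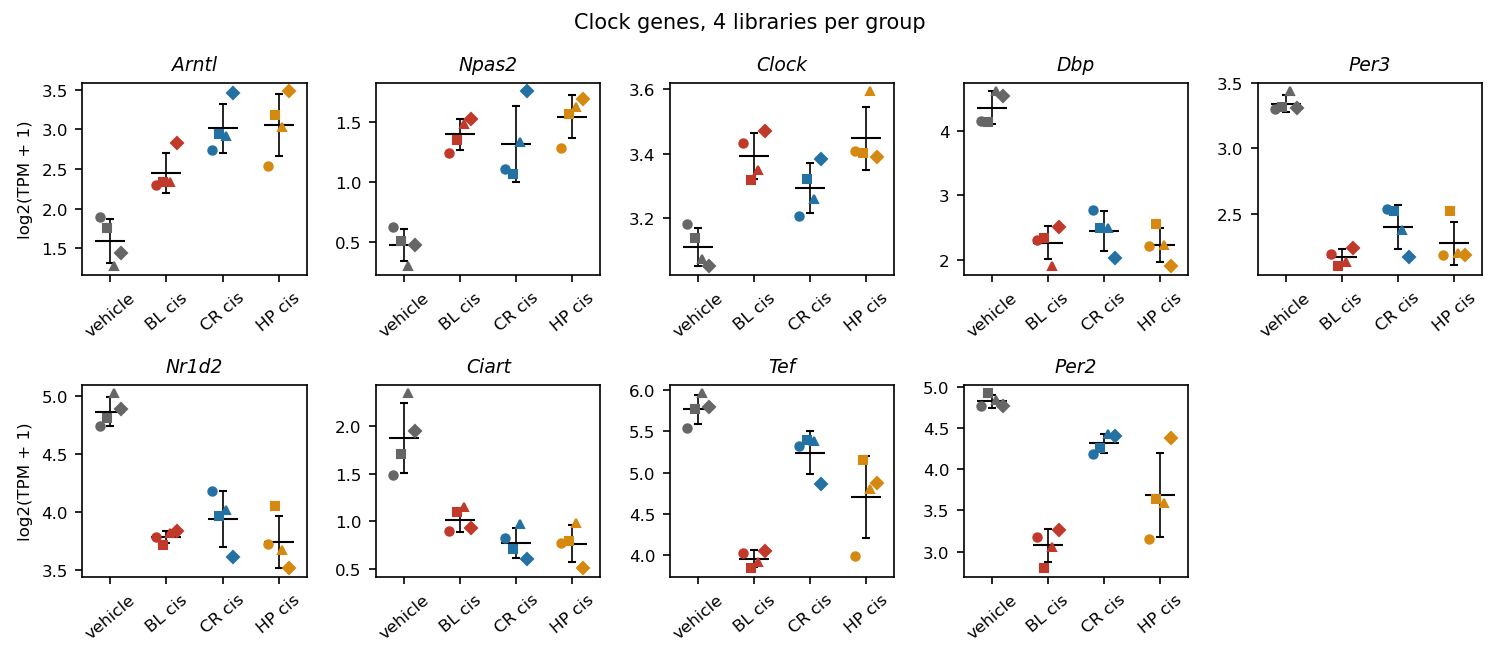
Levels of 9 clock genes on the log2(TPM + 1) scale (y axis) in the 4 groups (x axis), with 1 point per library and the mean ± SD of 4 libraries. Arntl, Npas2 and Clock lie above vehicle in all 12 cisplatin libraries, and Dbp, Per3, Nr1d2, Ciart, Tef and Per2 below, with Dbp at 2.77 to 5.87 TPM against 16.4 to 23.3 TPM.

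Of the other 3 genes called in CR_cisplatin, Leo1, a subunit of the PAF1 transcription elongation complex, was at 6.25, 5.71, 5.75 and 5.39 TPM in vehicle and 8.05, 9.51, 8.27 and 8.77 TPM in CR_cisplatin, a log2 difference of 0.51 (limma adjusted p = 0.0268). Coq10b, a coenzyme Q binding protein, differed by -0.49 (limma adjusted p = 0.0268). Without 1 library the calls were lost in 8 of 16 fits for Leo1 and 11 of 16 for Coq10b, with adjusted p up to 0.128 and 0.143. The third was H2-DMa, a class II gene, whose call held in all 16 fits that left out 1 library, with an adjusted p up to 0.0302, but not without the BL_cisplatin group (0.0820) or within the second prefix (0.232).

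Class II genes of antigen presentation were the other group below vehicle in all 12 libraries. Of 14 antigen presentation genes tested, 7 lay below and 0 above, beside 0.893% and 1.98% of all genes tested. The 7 were the class II chains H2-Aa, H2-Ab1 and H2-Eb1, the invariant chain Cd74, the peptide loading chains H2-DMa and H2-DMb1, and Ciita. The other 7 overlapped vehicle, and they are the class I genes of the list, such as H2-K1, H2-D1, B2m and Tap1, with the class I coactivator Nlrc5. In whole kidney RNA, fewer cells of a type and less RNA per cell cannot be told apart.

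Promoter stretches are shown for 2 class II chains because both held the Y box CTGATTGG, the element bound by NF-Y in class II promoters, here in capitals. H2-Aa (chr17:34287824-34288073, minus strand) held it 51 bases before the start and H2-Eb1 (chr17:34305721-34305866, plus strand) 62 bases before.
H2-Aa: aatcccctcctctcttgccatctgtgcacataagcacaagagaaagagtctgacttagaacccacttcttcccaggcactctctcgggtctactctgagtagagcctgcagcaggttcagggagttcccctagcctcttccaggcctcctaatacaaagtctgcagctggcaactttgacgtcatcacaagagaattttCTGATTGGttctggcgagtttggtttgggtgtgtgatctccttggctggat
H2-Eb1: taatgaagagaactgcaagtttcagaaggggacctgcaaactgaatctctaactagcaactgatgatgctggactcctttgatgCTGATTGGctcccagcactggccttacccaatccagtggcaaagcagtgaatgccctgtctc
The windows of H2-DMa and H2-DMb1 held none. The Y box was in 4.10% of all windows and 4.70% of genes on either strand, and in 18 of 199 higher and 7 of 87 lower members. These shares also include genes not tested here and are not a matched background.

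H2-Aa (chr17:34282744-34287823), the alpha chain, measured 28.9, 31.1, 32.0 and 23.0 TPM in BL_vehicle libraries 1 to 4. It measured 2.42, 2.17, 2.33 and 4.78 TPM in BL_cisplatin, 16.6, 18.8, 15.1 and 16.7 TPM in CR_cisplatin, and 2.38, 6.35, 4.23 and 15.2 TPM in HP_cisplatin. CR_cisplatin and HP_cisplatin 4 lay between vehicle and the injured libraries. The log2 differences were -2.96, -0.74 and -2.12 in BL_cisplatin, CR_cisplatin and HP_cisplatin, each ± 0.35 (SE), and CR_cisplatin was above BL_cisplatin by 2.22 (limma adjusted p = 0.000114). The difference of CR_cisplatin from vehicle did not pass limma's adjusted test. Here too the SE rests on a spread pooled over the 4 groups, with HP_cisplatin at 2.38 to 15.2 TPM. It is not the spread of CR_cisplatin and vehicle alone. H2-Ab1 (-2.52, -0.71 and -1.82), H2-Eb1 (-2.88, -0.66 and -1.999) and Cd74 (-2.65, -0.63 and -1.83) had differences of the same order in the 3 groups.

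Ciita (chr16:10480059-10528418), which switches class II genes on, was at 1.46, 1.80, 1.46 and 1.45 TPM in vehicle and at 0.0814, 0.526 and 0.930 TPM (lowest, median and highest) in the 12. Only vehicle libraries reached 1 TPM, so Ciita passed the filter on low values through the vehicle group alone. Its differences were -1.09, -0.52 and -0.79, and CR_cisplatin was above BL_cisplatin by 0.56 (limma adjusted p = 0.00172). Ciita thus followed the order of the chains, lowest in BL_cisplatin and nearest to vehicle in CR_cisplatin.

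H2-DMa (chr17:34119541-34139101) did not follow that order. It measured 3.21, 3.28, 4.46 and 3.32 TPM in vehicle, 2.32, 2.33, 2.39 and 2.38 TPM in BL_cisplatin, 1.73, 2.06, 1.96 and 1.96 TPM in CR_cisplatin, and 1.99, 2.04, 2.07 and 1.70 TPM in HP_cisplatin. The differences were -0.44, -0.63 and -0.62, each ± 0.08 (SE), and H2-DMa was the only one of the 134 lower genes to pass the test as lower in CR_cisplatin than in BL_cisplatin, with a difference of -0.20 (limma adjusted p = 0.0433). That call was lost with the title prefix as a term, with voom, without any 1 BL_cisplatin library, and without CR_cisplatin 1, 3 or 4 or HP_cisplatin 3. Its exons overlap those of Brd2 on the opposite strand, and the strand setting of the counting is not given in the sources used here, so reads of the pair may be mixed. H2-DMb1 differed from vehicle by -0.68, -0.54 and -0.55. Class I H2-K1 was at 57.4 to 78.1 TPM in vehicle and 54.8 to 96.3 TPM in the 12, a full overlap.

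**Figure D2:**
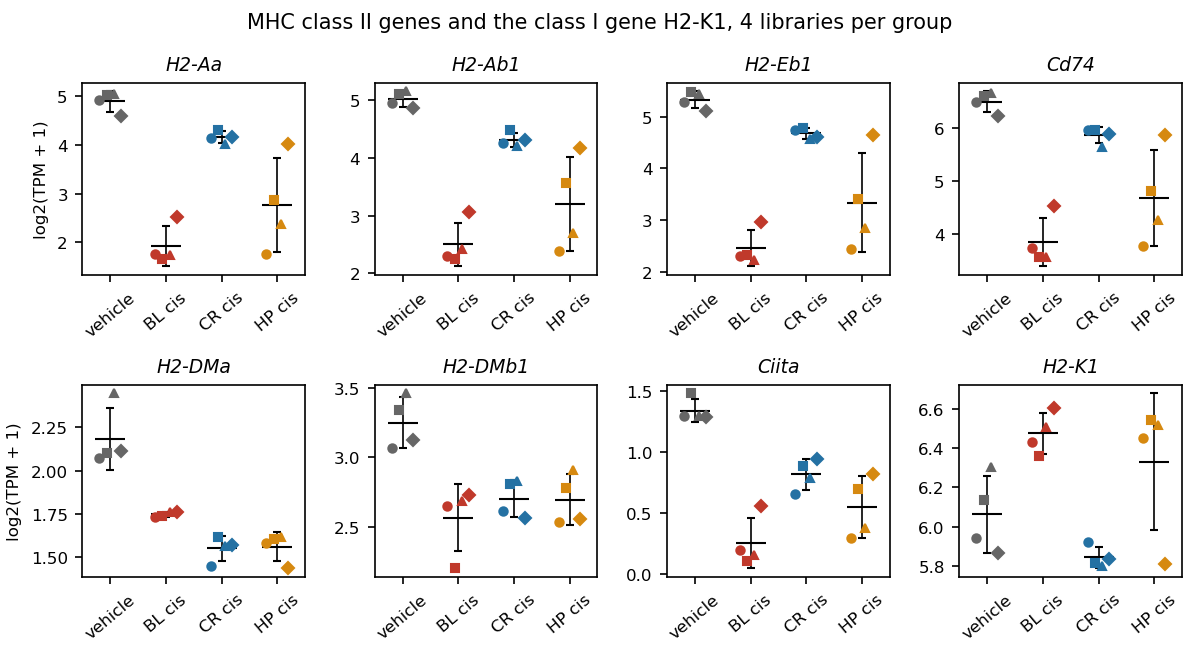
Levels of 7 class II antigen presentation genes and the class I gene H2-K1 on the log2(TPM + 1) scale (y axis) in the 4 groups (x axis), with 1 point per library and the mean ± SD of 4 libraries. The class II genes lie below vehicle in all 12 cisplatin libraries, the chains by 0.66 to 0.74 log2 units in CR_cisplatin and 2.52 to 2.96 in BL_cisplatin, while H2-K1 overlaps vehicle.

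Markers of the cells that make class II molecules were lower beside the chains for some genes and not for others. Of 15 macrophage and dendritic cell markers other than class II genes, 10 were tested and 0 lay apart from vehicle, beside 2.87% of all genes tested. The 10 had median differences of -0.19, 0.01 and 0.11 in BL_cisplatin, CR_cisplatin and HP_cisplatin. None of the 15 was at 0 in all 16 libraries, and their summed level was 49.3 to 65.4 TPM in vehicle, 116 to 138 in BL_cisplatin, 42.2 to 68.9 in CR_cisplatin and 61.6 to 102 in HP_cisplatin. Csf1r, a receptor of macrophages that was chosen after its values were seen, went against that sum in BL_cisplatin. It was at 10.4 to 14.5 TPM in vehicle, 11.3 to 13.9 TPM in CR_cisplatin and 3.27 to 5.85 TPM in BL_cisplatin. The 14 B cell markers summed to 9.10 to 44.4 TPM in vehicle, 4.71 to 17.5 TPM in BL_cisplatin, 14.8 to 30.8 TPM in CR_cisplatin and 5.16 to 83.9 TPM in HP_cisplatin. The 3 of them tested had a median difference of -1.09 in BL_cisplatin, 0.05 in CR_cisplatin and -0.03 in HP_cisplatin, and 0 lay apart in all 12. Genes outside these lists that also lay below vehicle in all 12 were Mpeg1, Cybb and Fcgr2b, expressed by macrophages and other myeloid cells and chosen after their values were seen. Mpeg1 was at 2.46 to 2.94 TPM in vehicle and 1.45 to 1.73 TPM in CR_cisplatin. The part of cell numbers in the class II result was not tested.

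Genes turned on by p53 were higher in all 12 libraries in a minority of cases. Of 57 p53 targets tested, 7 lay above vehicle in all 12 and 0 below, beside 1.98% and 0.893% of all genes tested. The 7 were Cdkn1a, Ccng1, Tnfrsf10b, Perp, Pidd1, Ei24 and Pvt1. With the median of ratios 5 of them lay above, and Ei24 and Perp overlapped vehicle. The list's median difference was 1.84 in BL_cisplatin, 1.23 in HP_cisplatin and 0.08 in CR_cisplatin, beside 0.08, 0.06 and 0.01 over all genes. In CR_cisplatin the target genes were thus near vehicle as a list, with at least those 7 above its range.

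The promoters of Cdkn1a and Ccng1 are shown because each held a stretch 1 mismatch from the p53 consensus element, in capitals, 51 and 195 bases before the start. The windows of Pidd1 and Ei24, also p53 members, came no closer than 5 mismatches. Of all windows 0.0883% (29) held a stretch within 1 mismatch. Cdkn1a lies at chr17:29090729-29090975 on the plus strand and Ccng1 at chr11:40755312-40755536 on the minus strand.
Cdkn1a: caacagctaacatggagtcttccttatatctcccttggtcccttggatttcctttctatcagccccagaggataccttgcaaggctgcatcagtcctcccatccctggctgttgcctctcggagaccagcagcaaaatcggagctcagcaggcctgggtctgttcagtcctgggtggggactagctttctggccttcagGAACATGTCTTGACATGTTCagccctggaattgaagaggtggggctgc
Ccng1: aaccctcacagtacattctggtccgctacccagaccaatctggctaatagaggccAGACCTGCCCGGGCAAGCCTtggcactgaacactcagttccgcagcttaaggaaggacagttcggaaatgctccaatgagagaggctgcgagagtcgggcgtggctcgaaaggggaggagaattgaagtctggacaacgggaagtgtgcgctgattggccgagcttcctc

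Cdkn1a (gene at chr17:29090976-29100727), the p21 inhibitor of cell cycle kinases, measured 0.772, 0.494, 1.36 and 1.47 TPM in BL_vehicle libraries 1 to 4. It measured 172, 179, 181 and 177 TPM in BL_cisplatin, 2.74, 1.94, 8.999 and 3.84 TPM in CR_cisplatin, and 206, 101, 146 and 3.76 TPM in HP_cisplatin. CR_cisplatin and HP_cisplatin 4 were a few TPM above vehicle and far below the other cisplatin libraries. The log2 differences were 6.49, 1.28 and 4.97 in BL_cisplatin, CR_cisplatin and HP_cisplatin, each ± 0.86 (SE), and the CR_cisplatin difference did not pass limma's adjusted test. The SE rests on a spread pooled over the 4 groups, with HP_cisplatin at 3.76 to 206 TPM. It is thus not the spread of CR_cisplatin and vehicle alone.

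Ccng1, cyclin G1 of the p53 feedback loop, was at 59.3, 63.3, 56.2 and 70.7 TPM in vehicle, 294, 259, 254 and 332 TPM in BL_cisplatin, 78.5, 76.1, 137 and 93.4 TPM in CR_cisplatin, and 341, 411, 415 and 93.8 TPM in HP_cisplatin. CR_cisplatin 3 was the highest of its group for both Cdkn1a and Ccng1. Tnfrsf10b, a death receptor, was at 0.474 to 0.700 TPM in vehicle and 0.746 to 1.74 TPM in CR_cisplatin, and Pidd1, a scaffold of death signalling, at 0.582 to 0.824 and 0.862 to 1.19 TPM. Neither gene reached 1 TPM in vehicle, so both passed the filter on low values through cisplatin libraries alone. Mdm2, the ligase that degrades p53, overlapped vehicle at 10.3 to 14.4 TPM in CR_cisplatin against 9.79 to 10.8 TPM, as did Phlda3 and Eda2r.

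Tubulin genes were gathered as a list after their values were seen, so their count describes and supports nothing. Of 10 tubulins tested, 7 were higher in all 12 libraries (Tubb2a, Tubb2b, Tubb6, Tubb4b, Tuba1b, Tuba1c and Tuba4a), beside 1.98% of all genes tested. The list medians were 1.85 in BL_cisplatin, 0.36 in CR_cisplatin and 1.06 in HP_cisplatin. Under the median of ratios Tuba1c and Tuba4a overlapped vehicle. Tubb2a (chr13:34074274-34078007), a beta tubulin of microtubules, was at 15.2, 14.6, 13.8 and 11.4 TPM in vehicle, 83.8, 90.1, 91.4 and 73.2 TPM in BL_cisplatin, 24.0, 22.0, 21.4 and 28.3 TPM in CR_cisplatin, and 75.3, 43.1, 58.6 and 27.1 TPM in HP_cisplatin. The CR_cisplatin libraries lay between vehicle and the other groups except HP_cisplatin 4. The log2 differences from vehicle were 2.54, 0.75 and 1.73, and CR_cisplatin differed from BL_cisplatin by -1.78 (limma adjusted p = 5.83e-05). Some tubulin paralogs are near-identical and can share reads, so the members are not all independent.

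**Figure D3:**
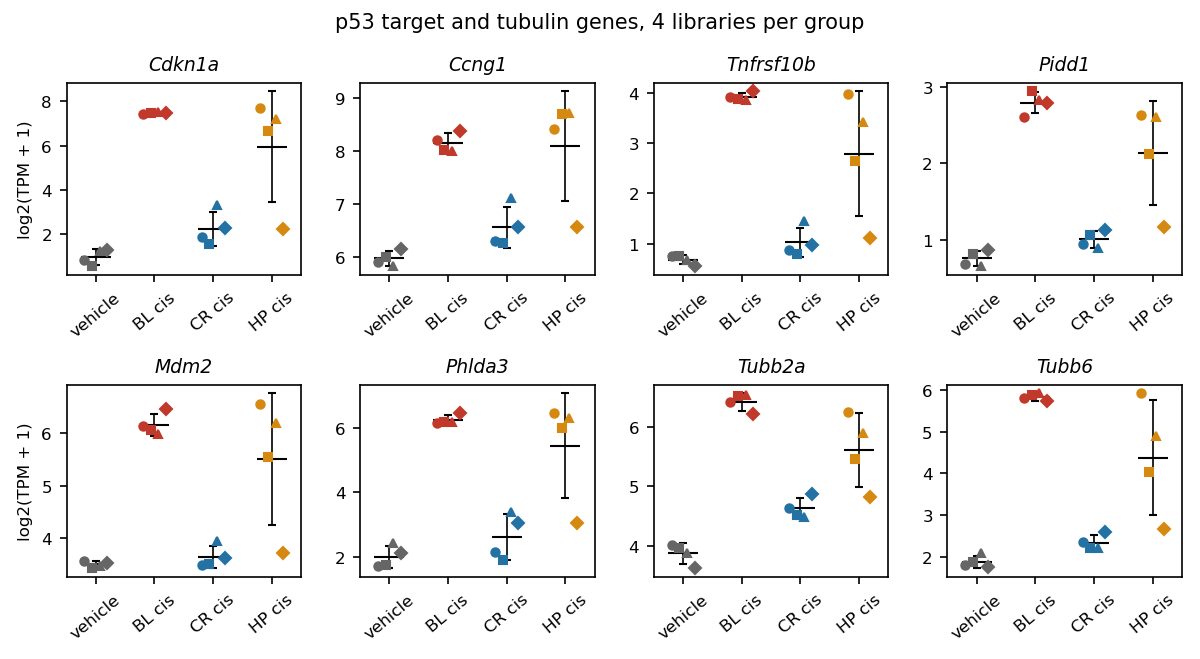
Levels of 6 p53 targets and 2 beta tubulins on the log2(TPM + 1) scale (y axis) in the 4 groups (x axis), with 1 point per library and the mean ± SD of 4 libraries. CR_cisplatin lies just above vehicle for Cdkn1a, Ccng1, Tnfrsf10b, Pidd1, Tubb2a and Tubb6 and overlaps it for Mdm2 and Phlda3, while BL_cisplatin lies far above for all 8.

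Other higher genes named by rank had varied roles. Hist1h2af, a histone H2A gene, was at 0.676, 0.550, 0.541 and 0.740 TPM in vehicle and at 1.40 TPM or more in each of the 12. It passed the filter on low values through cisplatin libraries alone. Of 21 other replication-dependent histone genes tested as a list, 0 lay apart from vehicle in all 12, with a median difference of 0.03 in CR_cisplatin. Itgb6, the integrin subunit of epithelia that activates TGF-beta, was at 16.9, 16.1, 15.3 and 15.8 TPM in vehicle and 27.7, 43.2 and 73.3 TPM (lowest, median and highest) in the 12, the widest gap to vehicle among the 297 higher genes, with differences of 1.75, 0.89 and 1.54 in BL_cisplatin, CR_cisplatin and HP_cisplatin. Slc16a1, the lactate transporter MCT1, was at 7.20 to 8.19 TPM in vehicle and 11.6, 25.7 and 29.0 TPM in the 12. Dtx4, a ubiquitin ligase, was at 1.96 to 3.15 TPM in vehicle and 4.17, 8.21 and 9.84 TPM in the 12. Itgb6, Slc16a1 and Dtx4 shared the order of BL_cisplatin, then HP_cisplatin, then CR_cisplatin.

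Ppard, a nuclear receptor of fatty acid use, had the differences closest in size among the higher genes named by rank, 0.82, 0.63 and 0.61, but its lowest cisplatin library was at 2.70 TPM against a vehicle maximum of 2.69 TPM. Clu, the secreted chaperone clusterin, was at 45.6 to 62.7 TPM in vehicle and 67.9 to 101 TPM in CR_cisplatin. Of the interferon list, 4 of 25 tested genes lay above vehicle in all 12 (Oasl2, Irf9, Xaf1 and Mx2), beside 1.98% of all genes tested. Of the NRF2 list, 3 of 21 did (Txnrd1, Gsr and Taldo1). Txnrd1, thioredoxin reductase, was at 40.9 to 47.0 TPM in vehicle and 49.7 to 59.3 TPM in CR_cisplatin, and Gsr, glutathione reductase, at 52.5 to 55.0 and 57.9 to 61.6 TPM. Steps of this size are small beside those in BL_cisplatin, at 174 to 200 and 100 to 114 TPM.

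Among lower genes outside the clock and class II groups, enzymes and transporters of the proximal tubule and liver-type metabolism were named by the same rank. Dpys, dihydropyrimidinase of pyrimidine breakdown, was at 5.55, 4.77, 3.75 and 3.89 TPM in vehicle and 0.112, 1.45 and 2.11 TPM (lowest, median and highest) in the 12, with differences of -2.18, -0.998 and -1.18. Bcat1, the cytosolic branched-chain aminotransferase, had differences of -0.92, -0.94 and -1.41. F5, coagulation factor V, differed by -1.23, -0.64 and -0.86, and Hpd, of tyrosine breakdown, by -3.62, -0.72 and -1.62. Slc6a19, the neutral amino acid transporter of the brush border, was at 62.0 to 80.6 TPM in vehicle, 43.5 to 59.95 TPM in CR_cisplatin and 13.5 to 22.0 TPM in BL_cisplatin. Of 30 proximal tubule genes tested, 3 lay below vehicle in all 12, beside 0.893% of all genes tested, and Slc34a1 was not among them. Aqp3, the water channel of the collecting duct, was at 35.9 to 46.4 TPM in vehicle and 16.4, 28.9 and 33.7 TPM in the 12, with differences of -0.51, -0.44 and -0.62.

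Other lists held 0 genes outside the vehicle range in all 12: platinum adduct repair (29 tested), cell cycle (17), replication-dependent histones (21), thick ascending limb (10), distal convoluted tubule (10), nuclear oxidative phosphorylation (26), glucocorticoid response (15), integrated stress response (16), NF-kB (13), fasting (21), cholesterol synthesis (24) and immediate early genes (14). Over all genes tested 2.87% lay outside the range, so a count of 0 in lists this short says little about them. Of 20 tubule injury genes tested 1 lay above vehicle in all 12, and of 24 ribosomal protein genes 5 did, beside 1.98% of all genes.

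Markers of other cell types gave few members, where 1.98% of all genes tested lay above vehicle and 0.893% below. Of 2 neutrophil markers tested, S100a8 lay above vehicle in all 12, at 0.0353, 0.0703, 0.0345 and 0 TPM in vehicle and 0.115, 0.831 and 1.89 TPM (lowest, median and highest) in the 12, and the 12 neutrophil markers summed to 0.448 to 0.838 TPM in vehicle and 0.653 to 3.82 TPM in CR_cisplatin. S100a8 passed the filter on low values through cisplatin libraries alone. Of 11 fibroblast and pericyte markers tested, Col1a1, a chain of type I collagen, lay above, at 1.305 to 2.17 TPM in vehicle and 2.47 to 4.83 TPM in CR_cisplatin. Of 10 podocyte markers, Magi2 lay below, and of 15 endothelial markers 0 lay apart. The 14 T and NK cell markers, none of them high enough to be tested, summed to 2.75 to 5.60 TPM in vehicle, 2.13 to 3.80 TPM in CR_cisplatin and 0.691 to 1.36 TPM in BL_cisplatin.

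**Figure D4:**
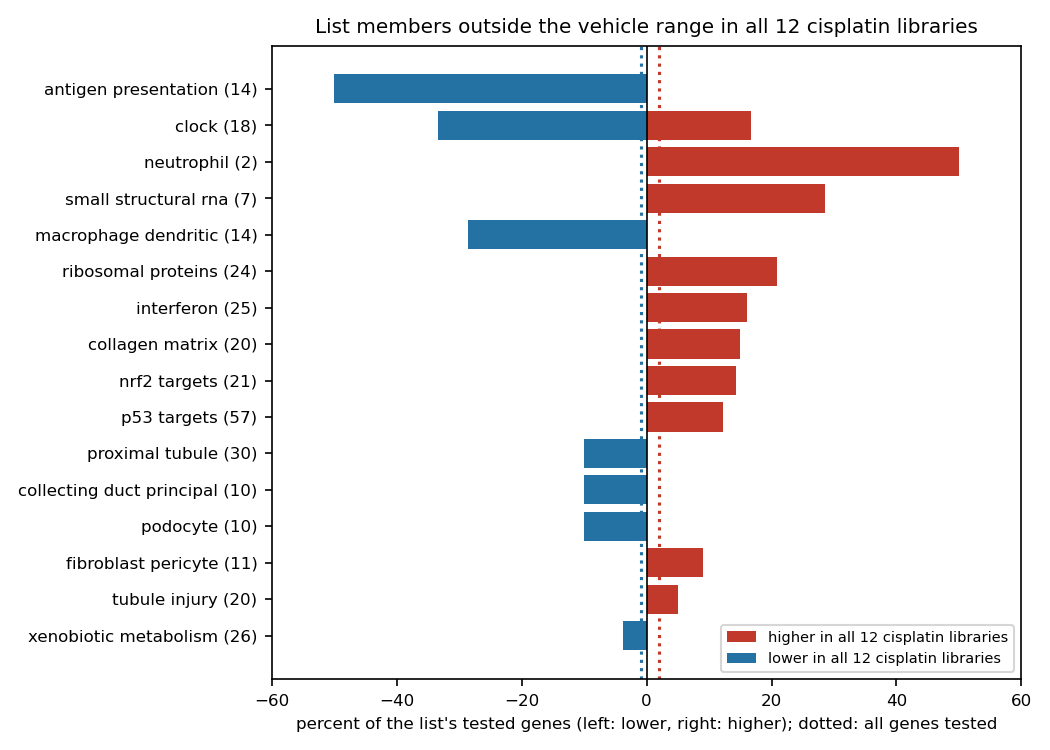
Percent of each gene list's tested members (x axis) that lie above or below vehicle in all 12 cisplatin libraries, with the lists on the y axis and dotted lines for all genes tested (1.98% above and 0.893% below). The clock list has 3 above and 6 below of 18, the antigen presentation list 7 below of 14, and the p53 list 7 above of 57.

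The lower genes spanned longer stretches of the genome than the higher genes, a property the rule did not use. The median span from first to last base was 12140.5 bp for the higher genes, 28395.5 bp for the lower genes and 16837 bp over all genes tested. Of 70 protein-coding genes tested that span over 500 kb, 10 (14.3%) lay below vehicle in all 12 (Fhit, Dpyd, Immp2l, Cpq, Sugct, Park2, Inpp4b, Smyd3, Magi2 and Vps13b) and 1 above (Nrg1), beside 0.893% and 1.98% of all genes. The bins of span were chosen after values were seen. Over all genes of this span the median difference was -0.52 in BL_cisplatin, -0.03 in CR_cisplatin and -0.33 in HP_cisplatin.

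Fhit, a diadenosine triphosphate hydrolase that spans 1611944 bp, was at 7.50, 7.28, 8.68 and 7.11 TPM in vehicle, 0.874, 0.394, 0.491 and 0.743 TPM in BL_cisplatin, 6.09, 4.97, 3.30 and 4.24 TPM in CR_cisplatin, and 0.612, 1.67, 1.01 and 4.25 TPM in HP_cisplatin. Its differences were -2.42, -0.63 and -1.73. Park2, the ubiquitin ligase parkin, was at 1.97 to 2.26 TPM in vehicle and 1.35 to 1.83 TPM in CR_cisplatin. Both were therefore lower in the libraries whose injury marker was at the vehicle level, by less than in BL_cisplatin.

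**Figure D5:**
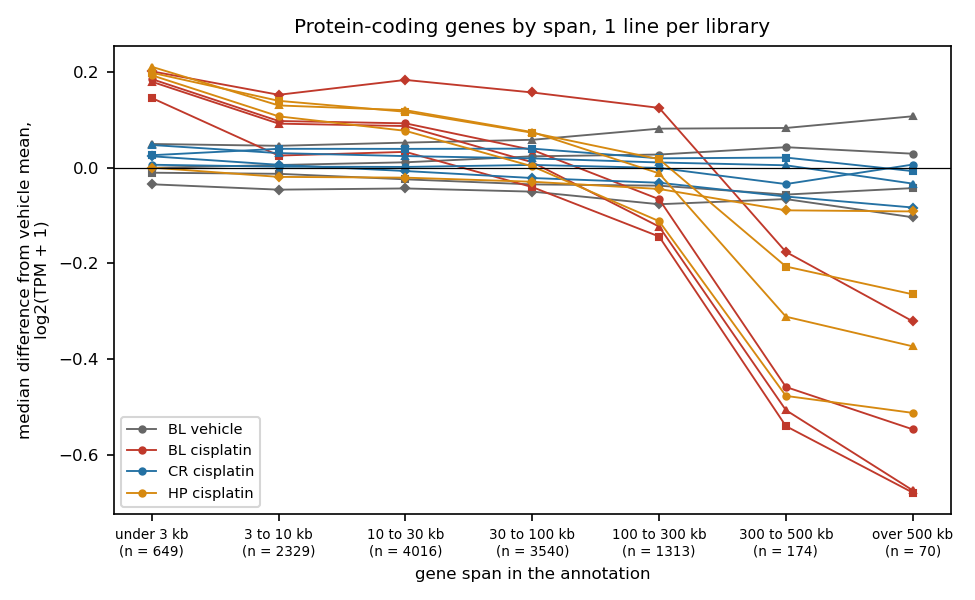
Median log2 difference from the vehicle mean (y axis) of protein-coding genes in bins of gene span (x axis), with 1 line per library and each vehicle library set against the mean of the other vehicle libraries. BL_cisplatin falls in the longest bin, over 500 kb, to a group median of -0.52, and CR_cisplatin stays at -0.03.

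Levels of the members also differed between the cisplatin groups. These counts are a description, because the rule used the same cisplatin values, a member far from vehicle in BL_cisplatin and near it in CR_cisplatin must differ between the 2, and the share over all genes mixes genes of both directions. Of the 297 higher genes, 231 were lower in CR_cisplatin than in BL_cisplatin by limma at an adjusted p of 0.05 (37.4% of all genes were), 1 was higher (Arntl, 29.8% of all genes) and 65 did not pass, with a median difference of -0.52. Of the 134 lower genes, 114 were higher in CR_cisplatin, 1 was lower (H2-DMa) and 19 did not pass, with a median of 0.70. Between HP_cisplatin and BL_cisplatin, 69 of the 297 were lower (13.1% of all genes) and 58 of the 134 higher (16.4%). Those became 35 and 39 without HP_cisplatin 2, 42 and 41 without BL_cisplatin 3, and 153 and 95 without HP_cisplatin 1. Between CR_cisplatin and HP_cisplatin, 122 of the 297 were lower (15% of all genes) and 45 of the 134 higher (9.24%). That count of 167 did not stand: it was 0 without HP_cisplatin 1, without HP_cisplatin 3, without any 1 CR_cisplatin library, without the BL_cisplatin group and with no filter on low values, and 294 without HP_cisplatin 4. In those 6 fits without 1 library, limma called 0 of all genes, with 4698 to 5687 at an unadjusted p under 0.05. With the title prefix as a term, 254 members were called between CR_cisplatin and BL_cisplatin in place of 347 and 0 in the other pairs. Over all genes limma then called 0 between HP_cisplatin and BL_cisplatin and 0 between CR_cisplatin and HP_cisplatin, with 1564 and 5553 at an unadjusted p under 0.05. Since all BL_cisplatin libraries carry the first prefix, prefix and group can be told apart there only through CR_cisplatin 1.

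Genes with like differences in the 3 groups included clock genes and others. Of the genes named by rank, H2-DMb1, Aqp3, Nr1d2, Dbp and Per3 had the closest differences among the lower genes and Ppard and Npas2 among the higher. Chosen after their values were seen, Baiap3 differed from vehicle by -0.46, -0.46 and -0.45 and the Ras-like gene Rasl11a by 0.37, 0.39 and 0.41. Baiap3 was at 1.05 to 1.40 TPM in vehicle and 0.330 to 1.02 TPM in the 12, so even the nearest libraries were almost in contact.

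Membership at the edge of the rule rests on small gaps. Just inside it were Nup210 and Ppp2r1b among the higher genes and Rsph9 and Dchs1 among the lower, and for Nup210 the highest vehicle and lowest cisplatin libraries were both at 6.05 TPM. Just outside were Clec14a, with a vehicle minimum of 3.224 and a cisplatin maximum of 3.225 TPM, and Vamp8, with 45.06 and 45.07 TPM. With a gap of at least 0.2 log2 units required, 37 of the 431 were left. Of the 431, 363 were protein-coding, and 28 of the 297 higher genes were processed pseudogenes, whose reads can belong to their parent genes. Exons of 141 members overlap those of another gene, Dbp with Sphk2 and Cdkn1a with a neighbour among them.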

How the data were processed

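Total RNA depleted of cytoplasmic ribosomal RNA was sequenced from 16 kidney libraries, 4 in each of 4 groups. The authors deposited TPM values per gene, that is length-scaled expression summing to 1000000 per library. The submitters' processing notes name STAR 2.5, featureCounts, Subread 1.5 and the builds mm10 and GRCm38. The strand setting and annotation are not given in the sources used here. Groups were taken from the preconditioning and injection labels, and replicate numbers follow accession order.

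Values were analysed as log2(TPM + 1) for genes at 1 TPM or more in at least 4 libraries. A gene was described when its 12 cisplatin values all lay above, or all below, the 4 vehicle values. Group differences were fitted with limma 3.58.1 (R 4.3.3, statmod 1.5.0) on group means over 16 libraries, with trended and robust variances, 2-sided p-values and Benjamini-Hochberg adjustment over 15014 genes at 0.05. Read counts recovered from the TPM steps gave depth and served limma's voom as an alternative, with median-of-ratios library sizes. The fit and the recovery were tested on simulated data. Gene positions came from GENCODE M21, which matched 45229 IDs, and promoter windows from RefSeq on GRCm38.p6, which held 286 of the 431 genes.

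The members and lists were chosen with earlier results of these data known. Genes were named by rank of the smallest of the 3 group differences (15 in each direction, protein-coding or long noncoding, autosomal, mean log2 of at least 1), as up to 6 members of each list, as the fixed genes Cdkn1a, Mdm2, Ccng1, Phlda3, Eda2r, Havcr1, Slc34a1 and Hbb-bs, and as the genes at the edge of the rule. Clock, Tef, Per2, Perp, H2-DMa, Leo1, Coq10b, Baiap3, Rasl11a, Gm24445, Nr1d1, Nfil3, Csf1r, Mpeg1, Cybb, Fcgr2b, the tubulins and the long genes fall outside that rule where it did not reach them, and were chosen after their values were seen. Alternatives covered pseudocount, filter, scaling, left-out libraries and groups, title prefix, voom, array weights and a 2-group fit.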

Additional observations from a re-analysis of the deposited data

Results flagged for a closer look

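In 20 of 252 gene groups of 4 libraries, 1 library lay far from the other 3 by Dixon's test, and chance alone gives about 1 in 20. In BL_cisplatin 4, Arntl was at 6.13 TPM against 3.94 to 4.07 in the others, Col1a1 at 16.8 against 9.44 to 10.3, H2-Aa at 4.78 against 2.17 to 2.42, H2-Eb1 at 6.82 against 3.67 to 4.02 and Phlda3 at 87.8 against 70.1 to 72.1. In BL_cisplatin 1, Dpys was at 0.438 TPM against 0.112 to 0.138, and in BL_cisplatin 2, H2-DMb1 was at 3.62 TPM against 5.28 to 5.63. In HP_cisplatin 4, Ccng1 was at 93.8 TPM against 341 to 415, Phlda3 at 7.18 against 62.7 to 87.8, Ei24 at 21.4 against 49.0 to 52.5 and Mx2 at 0.570 against 1.10 to 1.16. In HP_cisplatin 2, Per3 was at 4.73 TPM against 3.54 to 3.60. In CR_cisplatin 4, Dtx4 was at 5.91 TPM against 4.17 to 4.36 and Aqp3 at 23.7 against 29.3 to 30.5, and in CR_cisplatin 3 the red blood cell gene Hbb-bs was at 0.369 TPM against 13.6 to 16.9. In BL_vehicle 4, Apoa4 was at 2.71 TPM against 4.54 to 4.93 and Rplp1 at 396 against 424 to 426. In BL_vehicle 3, Per3 was at 9.83 TPM against 8.86 to 8.96 and Col4a1 at 49.3 against 43.6 to 44.5, and in BL_vehicle 2, Ciita was at 1.80 TPM against 1.45 to 1.46.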

How the results depend on the processing

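None of the 63 named genes reversed its pooled direction under any alternative run. The pooled count of 6650 genes fell to 23 without BL_cisplatin, 15 within the second title prefix, 18 in a 2-group fit, 1112 with the prefix as a term and 727 with a log2 difference of at least 1 required, and was 10199 with array weights, whose fit gave a convergence warning. Leaving out 1 library gave 4568 to 8227 pooled calls. The count of 431 genes apart from vehicle became 1952 without CR_cisplatin and 37 with a gap of 0.2 log2 units required. It ranged from 431 to 669 with 1 library left out, with 651 without BL_vehicle 1 and 669 without BL_vehicle 4, since a rule over fewer libraries is easier to meet. Without HP_cisplatin 4 the calls against vehicle went from 8 to 17 in CR_cisplatin and from 4398 to 7709 in HP_cisplatin, and members called between CR_cisplatin and HP_cisplatin from 167 to 294. In the other direction, calls in HP_cisplatin fell to 692 without HP_cisplatin 3 and 1911 without HP_cisplatin 1, and members called between CR_cisplatin and HP_cisplatin to 0 without HP_cisplatin 1 or 3 or any 1 CR_cisplatin library. The CR_cisplatin count ranged from 4 to 17 with 1 library left out. With the prefix as a term, members called fell from 129 to 0 between HP_cisplatin and BL_cisplatin and from 167 to 0 between CR_cisplatin and HP_cisplatin. Among the 63 named genes the pooled call was lost for 51 in the 2-group fit, 52 within the second prefix, 47 without BL_cisplatin, 11 with the prefix term and 2 with voom. The cause of these shifts was not tested. No paired analysis was possible because the labels number no replicates. In CR_cisplatin 14 of the 15014 genes tested differed from vehicle by at least 1 log2 unit, against 2596 in BL_cisplatin. With 4 libraries a group, a gene that did not pass the test is not shown to be unchanged.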
